A study of Mus musculus with 11 samples.

Results

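The genes described here are 33 components of protein folding in the endoplasmic reticulum (ER) and of the unfolded protein response, followed in the whole kidneys of young lupus-prone mice. They were taken as a list of names, by function: chaperones and disulfide isomerases of the ER, the stress sensors and their transcription factors, their targets, and the machinery that moves proteins into and out of the ER. Each name was matched by gene symbol to a row of the array values, and all 33 had exactly 1 row among the 16475 genes measured. Gene expression was profiled on Affymetrix arrays in 7 kidneys of NZB/W mice aged 6 weeks and in 4 kidneys of NZW/BXSB mice aged 8 weeks, all prenephritic and without proteinuria. In the study's account the NZB/W mice were F1 females, and the NZW/BXSB mice were males carrying the Yaa locus, a duplication that includes Tlr7 (kidneys were perfused with saline before harvest). Both strains develop lupus nephritis later in life, and neither group was treated, so no strain free of lupus stood beside them. Sex and age changed with the strain, and their parts in any difference cannot be told apart. The labels name no batch, and any effect of array processing that went with the strain cannot be told apart from it either.

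Proteins that are secreted or sit in membranes fold in the ER, where BiP, GRP94, the lectin chaperones and the protein disulfide isomerases hold and oxidise them. When unfolded protein builds up, the sensors IRE1, PERK and ATF6 are activated: IRE1 splices the Xbp1 message, PERK slows translation and favours ATF4, and ATF6 is cleaved to a transcription factor, and together they raise chaperones and the proteins of ER-associated degradation. In the kidney the pathway is known from tubular cells and podocytes under protein overload or toxic injury, and plasma cells, which make antibody, depend on its IRE1 and XBP1 arm. Splicing, phosphorylation and cleavage are not read by gene-level arrays, so the values below are levels of total transcript.

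The response acts through short promoter elements, and exact matches to them in the members are shown here. Binding or use of a match was not measured. A window from 250 bases before to 50 bases after the annotated start of transcription was found for 28 of the 33 members in RefSeq (GRCm38.p6, the mouse reference, not the sequence of either strain), and Atf6, Manf, Sec61a1, Derl1 and Hyou1 had none. The ER stress element ERSE, bound by ATF6 with NF-Y, was searched on both strands as CCAAT and CCACG with 9 free bases between them. It was held by 9 of the 28 members (32.1%) against 0.119% of 32851 windows of all genes, the first a share of genes and the second of windows. The members were chosen as genes of this response, so these shares are a description and not a test. ERSE-II, searched as ATTGG and CCACG with 1 free base between them, was in Dnajb11 and Herpud1 and in 0.0365% of all windows. The unfolded protein response element searched as TGACGTGG was in none of the members' windows and in 0.676% of all windows. The C/EBP-ATF composite element CARE, through which ATF4 acts, was searched as TGATGNAAN and was in Asns, Chac1, Herpud1 and Trib3 and in 3.95% of all windows. No 2 of these motifs overlapped in a member. Each element is given in the orientation of the motif, 5′ to 3′, with the fixed letters in capitals and the free positions in lower case.
Hspa5 ERSE: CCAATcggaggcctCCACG
Hsp90b1 distal ERSE: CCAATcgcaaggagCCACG
Hsp90b1 proximal ERSE: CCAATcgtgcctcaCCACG
Dnajc3 ERSE: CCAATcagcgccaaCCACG
Calr ERSE: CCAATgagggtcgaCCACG
Canx ERSE: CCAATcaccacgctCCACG
Pdia6 ERSE: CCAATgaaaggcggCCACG
Creld2 ERSE: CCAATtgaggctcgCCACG
Syvn1 ERSE: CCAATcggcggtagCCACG
Derl3 ERSE: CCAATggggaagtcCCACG
Dnajb11 ERSE-II: ATTGGcCCACG
Herpud1 ERSE-II: ATTGGgCCACG
Herpud1 CARE: TGATGcAAc
Asns CARE: TGATGaAAc
Chac1 CARE: TGATGcAAc
Trib3 CARE: TGATGtAAa

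**Figure D1:**
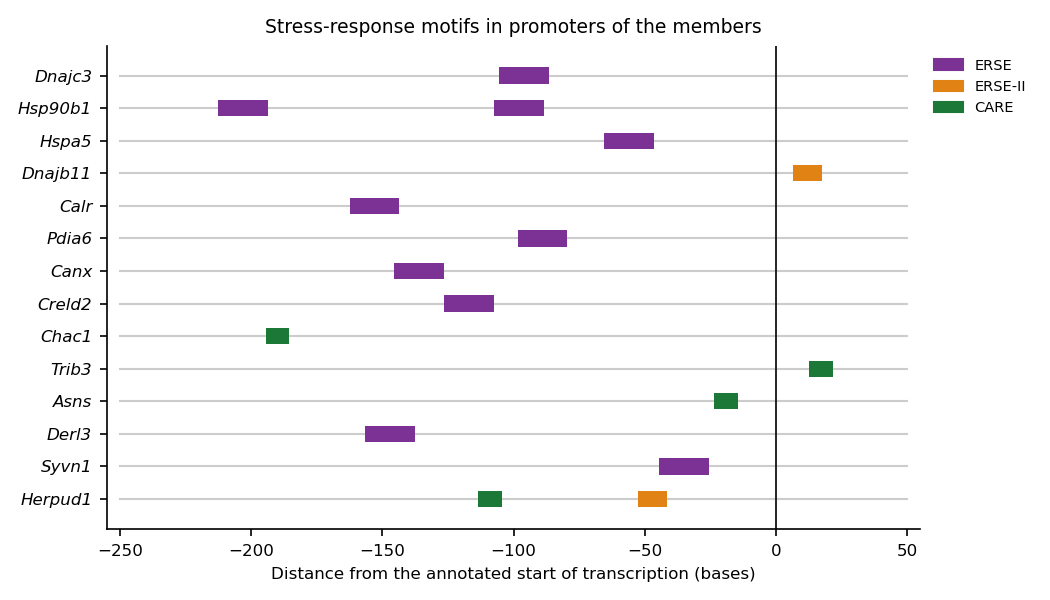
Positions of the motifs in the 14 member promoters that held one, as distance in bases from the annotated start of transcription (0); grey lines are the 300-base windows and coloured bars the motifs. All 10 ERSE copies lie before the start, while the ERSE-II of Dnajb11 and the CARE of Trib3 lie just after it.

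Pairs of members that share an element are shown with their whole windows: Hspa5 and Calr, which share ERSE, and Chac1 and Asns, which share CARE. On the common scale described below, Calr was called higher in NZB/W and Hspa5 was not called, with the same sign. Both were lower as deposited, and the difference between the 2 genes was not tested. Chac1 was called higher in NZB/W and Asns lower on the common scale. The windows are Hspa5 at chr2:34771840-34772139 on the plus strand, Calr at chr8:84846882-84847181 on the minus strand, Chac1 at chr2:119350992-119351291 on the plus strand and Asns at chr6:7693160-7693459 on the minus strand. All are printed 5′ to 3′ along the gene, and capitals mark the fixed letters of the motif, which reads on the other strand in Calr and Chac1.
Hspa5 promoter: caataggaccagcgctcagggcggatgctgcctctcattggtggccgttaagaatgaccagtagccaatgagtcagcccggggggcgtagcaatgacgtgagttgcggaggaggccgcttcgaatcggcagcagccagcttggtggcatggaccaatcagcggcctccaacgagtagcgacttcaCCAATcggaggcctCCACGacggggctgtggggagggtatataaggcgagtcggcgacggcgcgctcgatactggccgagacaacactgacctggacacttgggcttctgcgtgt
Calr promoter: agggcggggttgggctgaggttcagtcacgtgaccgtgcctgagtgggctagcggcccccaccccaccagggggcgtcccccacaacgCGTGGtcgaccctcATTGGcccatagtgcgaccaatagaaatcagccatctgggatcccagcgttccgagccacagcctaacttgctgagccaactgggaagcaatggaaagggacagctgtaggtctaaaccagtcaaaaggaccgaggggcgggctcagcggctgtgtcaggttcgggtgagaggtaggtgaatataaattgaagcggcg
Chac1 promoter: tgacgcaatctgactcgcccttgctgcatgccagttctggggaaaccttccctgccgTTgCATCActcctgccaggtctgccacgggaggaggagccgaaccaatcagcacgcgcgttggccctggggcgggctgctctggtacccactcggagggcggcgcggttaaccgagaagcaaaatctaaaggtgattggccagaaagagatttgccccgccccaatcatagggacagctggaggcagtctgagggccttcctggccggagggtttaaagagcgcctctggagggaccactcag
Asns promoter: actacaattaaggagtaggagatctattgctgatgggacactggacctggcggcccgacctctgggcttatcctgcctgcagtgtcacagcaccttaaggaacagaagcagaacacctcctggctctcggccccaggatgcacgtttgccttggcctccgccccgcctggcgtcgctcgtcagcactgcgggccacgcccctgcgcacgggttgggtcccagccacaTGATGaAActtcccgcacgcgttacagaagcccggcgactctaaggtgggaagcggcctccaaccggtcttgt

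The deposited log2 values did not share 1 scale: the array medians were 7.38 ± 0.014 for the 7 NZB/W kidneys and 8.08 ± 0.04 for the 4 NZW/BXSB kidneys (mean and SD), and the median gene differed by -0.69 as deposited. Values are therefore given in log2 units on a common scale, after quantile normalization of the 11 arrays, and a difference is NZB/W minus NZW/BXSB. All 33 members were above the deposited baseline in both strains. The kidney markers Umod (mean 13.73 in NZB/W, 13.52 in NZW/BXSB) and Lrp2 (mean 13.03 in NZB/W, 12.56 in NZW/BXSB) were high in both, and Xist, the transcript of the inactive X chromosome, was at 10.57 in NZB/W against 4.65 in NZW/BXSB. In bulk samples, fewer cells of a type and less RNA per cell cannot be told apart.

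Before nephritis the folding and stress genes differed between the strains in both directions. The genes of the main chaperones BiP and GRP94 differed by less than the spread between mice. On the common scale 10 members passed the study's limits (limma adjusted p at most 0.001 and a ratio of NZB/W to NZW/BXSB of at least 1.4 or at most 0.7). Calr, Ern1 and Chac1 were higher in NZB/W, though as deposited Calr had the opposite sign and Ern1 differed by 0.03. Asns, Pdia4, Manf, Edem1, Trib3, Dnajb11 and Xbp1 were lower. Eif2ak3 and Sdf2l1, at ratios of 0.709 and 0.715, lay just outside the limit of 0.7. Among those just inside a limit were Xbp1 (ratio 0.699), Calr (ratio 1.42) and Manf (limma adjusted p = 8.86e-04). Fewer than 10 members passed whenever 1 kidney was left out. With limma, 24 of the 33 members (72.7%) were called at a Benjamini-Hochberg adjusted p below 0.05 over all 14419 genes tested, near the 69.4% of all genes called. By direction, 6 members (18.2%) were higher and 18 (54.5%) lower, beside 33.3% of all genes higher and 36.1% lower. The median difference of the members was -0.18, beside -0.015 for all genes. In 14 members (42.4%) every NZB/W kidney lay below every NZW/BXSB kidney, and in 3 (9.09%) every NZB/W kidney lay above, beside 28.8% and 25.9% of all genes. At the study's limits (adjusted p at most 0.001 with a fold of at least 1.4 or at most 0.7, here with limma), 3 members were higher and 7 lower, 30.3% of the members beside 27.9% of all genes.

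The direction of many of these calls hung on the scale. As deposited, 1 member (Chac1) was higher and 31 were lower, beside 5.56% and 84.0% of all genes, 32 of 33 in all beside 89.5%, and the median of the members was -0.89, beside -0.69 for all genes. No member lay wholly above and 29 lay wholly below in NZB/W on that scale, beside 3.40% and 77.2% of all genes. Of the 6 members called higher on the common scale, Calr, Pdia6, Hyou1 and Dnajc3 had the opposite sign as deposited and Ern1 (0.03) was not called. As deposited, Calr, Pdia6, Hyou1 and Dnajc3 were lower in NZB/W by less than the median gene was.

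**Figure D2:**
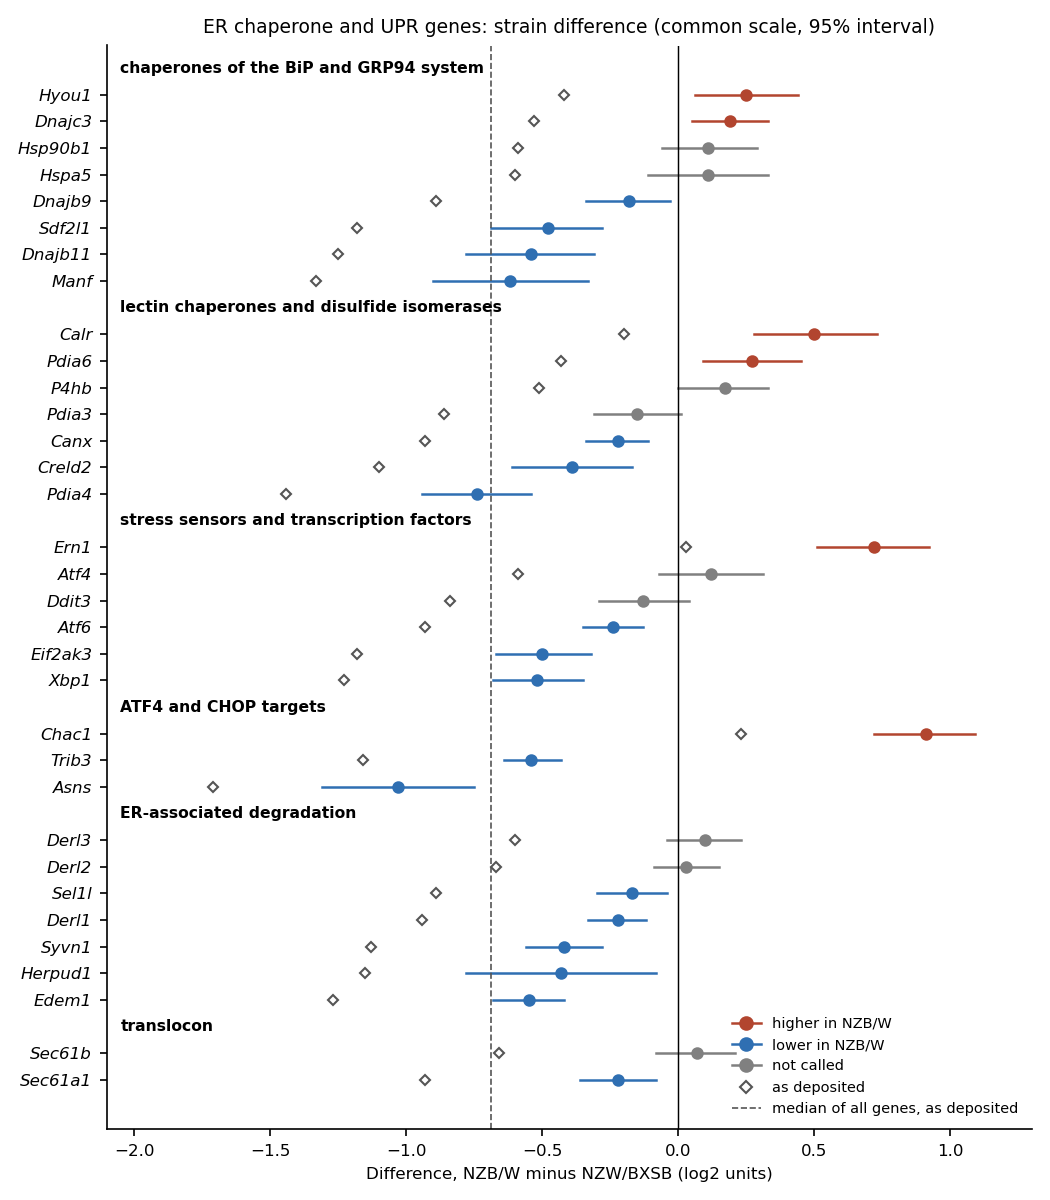
Difference between the strains for each member in log2 units (NZB/W minus NZW/BXSB): filled points on the common scale with 95% intervals from limma (red, higher in NZB/W; blue, lower; grey, not called) and open diamonds as deposited, where the dashed line is the median of all genes (-0.69). Chac1 (0.91) and Asns (-1.03) span the range, and the deposited differences run about parallel, with Chac1 and Ern1 the only members above 0 there.

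Among the chaperones of the BiP and GRP94 system, 2 of 8 were higher in NZB/W and 4 lower, beside 33.3% and 36.1% of all genes. Hspa5 encodes BiP, the Hsp70 of the ER and the usual readout of ER stress. Its level was 11.33 to 11.95 in NZB/W, with a median of 11.74, and 11.71, 11.73, 11.41 and 11.55 in NZW/BXSB. The strains overlapped fully, and the difference of 0.11 had a 95% interval of -0.11 to 0.33 (limma adjusted p = 0.342). Hsp90b1, the gene of GRP94, a chaperone of Toll-like receptors and integrins, stood at 11.39 to 11.77 in NZB/W (median 11.64) and at 11.69, 11.51, 11.38 and 11.45 in NZW/BXSB. It too overlapped, with a difference of 0.11 and an interval of -0.06 to 0.29 (limma adjusted p = 0.221). Both were lower as deposited (-0.60 and -0.59), close to the median gene.

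Of the genes whose products work around BiP, Manf, Dnajb11 and Sdf2l1 were lower in NZB/W on the common scale, where Hspa5 was not called. Manf encodes a secreted factor that is held in the ER with BiP. Its level was 9.40 to 10.22 in NZB/W, with a median of 10.11, and 10.64, 10.69, 10.42 and 10.74 in NZW/BXSB. No NZB/W kidney reached the lowest NZW/BXSB kidney, and Manf was 1.53-fold lower in NZB/W (-0.62 ± 0.131 SE, limma adjusted p = 8.86e-04). Dnajb11 encodes ERdj3, the J protein that hands unfolded clients to BiP. It stood at 7.57 to 8.23 in NZB/W (median 8.02) and at 8.51, 8.67, 8.39 and 8.45 in NZW/BXSB, again without overlap (-0.54 ± 0.110 SE, limma adjusted p = 5.90e-04). Sdf2l1, whose product forms a complex with ERdj3, ranged over 6.85 to 7.38 in NZB/W (median 7.18) and was 7.69, 7.56, 7.45 and 7.68 in NZW/BXSB. These genes, which make partner proteins, were thus both lower in every NZB/W kidney than in any NZW/BXSB kidney (Sdf2l1 -0.48 ± 0.0951 SE, limma adjusted p = 4.67e-04).

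The rest of this group differed by smaller steps. Hyou1, the gene of the nucleotide exchange factor GRP170, ranged over 6.55 to 6.93 in NZB/W (median 6.73) and was 6.60, 6.67, 6.26 and 6.47 in NZW/BXSB. The strains overlapped, and the difference of 0.25 (limma adjusted p = 0.0202) was not called without NZW/BXSB replicate 3 (0.17, limma adjusted p = 0.0938). Dnajc3, which encodes the PERK inhibitor p58IPK, differed by 0.19 and Dnajb9, which encodes the IRE1 repressor ERdj4, by -0.18 (limma adjusted p = 0.0209 and 0.0333). Neither call held when each array was only centred on its median (limma adjusted p = 0.0841 for Dnajc3 and 0.0801 for Dnajb9), nor without NZW/BXSB replicate 4 (limma adjusted p = 0.0755 for Dnajc3 and 0.0787 for Dnajb9).

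**Figure D3:**
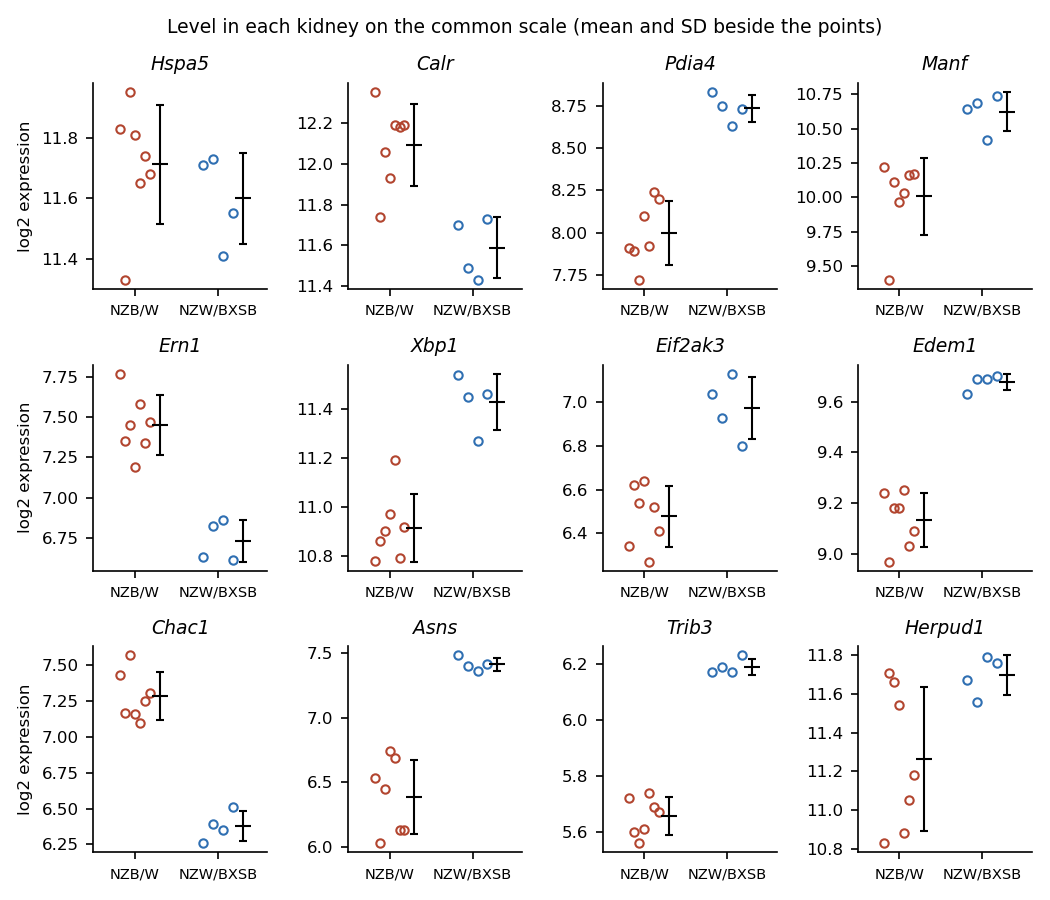
Level of 12 members in each kidney in log2 units on the common scale, NZB/W (red, n = 7) left of NZW/BXSB (blue, n = 4), with the mean and SD beside the points. Hspa5 and Herpud1 overlap between the strains, while the other 10 do not, and 1 NZB/W kidney lies apart from the other 6 in Manf; as deposited Calr has the opposite sign and Ern1 a difference near 0.

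Calreticulin and calnexin, the 2 lectin chaperones that hold sugar-bearing proteins in the same folding cycle, went opposite ways on the common scale. Calr, the gene of calreticulin, stood at 11.74 to 12.35 in NZB/W (median 12.18) and at 11.70, 11.49, 11.43 and 11.73 in NZW/BXSB. The lowest NZB/W kidney lay just above the highest NZW/BXSB kidney, and Calr was 1.42-fold higher in NZB/W (0.50 ± 0.103 SE, limma adjusted p = 6.79e-04), but lower by 0.20 as deposited. Canx, the gene of calnexin, stood at 11.29 to 11.56 in NZB/W (median 11.47) and at 11.68, 11.71, 11.67 and 11.65 in NZW/BXSB. The NZB/W kidneys all lay below, by a small step (-0.22 ± 0.0539 SE, limma adjusted p = 0.00233).

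Of the disulfide isomerases and their relatives, Pdia4 differed most. Pdia4 encodes ERp72, a thioredoxin-like isomerase of the BiP complex, and its level was 7.72 to 8.24 in NZB/W (median 7.92) and 8.83, 8.75, 8.63 and 8.73 in NZW/BXSB. The strains were well apart, and Pdia4 was 1.67-fold lower in NZB/W (-0.74 ± 0.0917 SE, limma adjusted p = 8.08e-06). Creld2, an ER stress gene whose product has isomerase activity, stood at 8.34 to 8.83 in NZB/W (median 8.57) and at 9.21, 9.05, 8.68 and 9.01 in NZW/BXSB. One NZW/BXSB kidney lay within the NZB/W range, and the difference was -0.39 ± 0.103 (SE, limma adjusted p = 0.00386). Pdia6 (0.27, limma adjusted p = 0.0112) was higher on the common scale and lower as deposited (-0.43). Pdia3, the isomerase that works with the lectin chaperones, differed by -0.15 with an interval of -0.31 to 0.01 and was not called. P4hb, the founding isomerase, which is also a subunit of prolyl 4-hydroxylase, differed by 0.17 (limma adjusted p = 0.0640) and was called after median centring (limma adjusted p = 0.0182).

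The 3 sensors of ER stress did not move together. Ern1, which encodes IRE1 alpha, had values of 7.19 to 7.77 in NZB/W (median 7.45) and of 6.63, 6.82, 6.86 and 6.61 in NZW/BXSB. All NZB/W kidneys lay above all NZW/BXSB kidneys, 1.64-fold higher on the common scale (0.72 ± 0.0952 SE, limma adjusted p = 1.51e-05), whereas as deposited the strains differed by 0.03 (limma adjusted p = 0.776) where the median gene differed by -0.69. Eif2ak3, the gene of the kinase PERK, stood at 6.27 to 6.64 in NZB/W (median 6.52) and at 7.04, 6.93, 7.13 and 6.80 in NZW/BXSB. It was 1.41-fold lower in NZB/W, without overlap (-0.50 ± 0.0821 SE, limma adjusted p = 1.10e-04). Atf6 stood at 7.61 to 7.81 in NZB/W (median 7.70) and at 7.94, 7.91, 7.95 and 8.03 in NZW/BXSB, and the strains did not overlap in this gene of small spread (-0.24 ± 0.0488 SE, limma adjusted p = 6.22e-04).

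Below the sensors, Xbp1 was lower in NZB/W and Atf4 and Ddit3 were not called. Xbp1 encodes the factor made active by IRE1, and its total transcript stood at 10.78 to 11.19 in NZB/W (median 10.90) and at 11.54, 11.45, 11.27 and 11.46 in NZW/BXSB. It was 1.43-fold lower in NZB/W without overlap (-0.52 ± 0.0778 SE, limma adjusted p = 4.81e-05), so that Ern1 and Xbp1, enzyme and substrate of the same arm, differed in opposite directions on the common scale. Atf4, the factor of the PERK arm, ranged over 9.92 to 10.35 in NZB/W (median 10.18) and was 10.02, 9.97, 9.97 and 10.26 in NZW/BXSB. Ddit3, which encodes CHOP, the pro-apoptotic factor downstream of ATF4, ranged over 8.09 to 8.48 in NZB/W (median 8.26) and was 8.33, 8.57, 8.28 and 8.48 in NZW/BXSB. Both overlapped between the strains, with intervals of -0.07 to 0.31 for Atf4 and -0.29 to 0.04 for Ddit3 (limma adjusted p = 0.237 and 0.159). Without NZB/W replicates 6 and 7, which had the lowest plasma cell and tubular injury list means of the 7, Atf4 was called higher (0.20, limma adjusted p = 0.0398).

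The 3 listed targets of ATF4 and CHOP gave the widest range of all, and in both directions. Chac1, which encodes an enzyme that breaks down glutathione, stood at 7.10 to 7.57 in NZB/W (median 7.25) and at 6.26, 6.39, 6.35 and 6.51 in NZW/BXSB. It was 1.87-fold higher in NZB/W (0.91 ± 0.0865 SE, limma adjusted p = 6.61e-07) and was the 1 member also called higher as deposited (0.23, limma adjusted p = 0.0235). Asns, the gene of asparagine synthetase, stood at 6.03 to 6.74 in NZB/W (median 6.45) and at 7.48, 7.40, 7.36 and 7.41 in NZW/BXSB. The NZW/BXSB kidneys lay close together and above all NZB/W kidneys, a 2.04-fold lower level in NZB/W (-1.03 ± 0.129 SE, limma adjusted p = 8.84e-06). Trib3, a pseudokinase gene induced by ATF4 and CHOP, stood at 5.56 to 5.74 in NZB/W (median 5.67) and at 6.17, 6.19, 6.17 and 6.23 in NZW/BXSB. It had the smallest adjusted p among the members (4.09e-07 by limma) at a 1.45-fold lower level in NZB/W. Its NZB/W mean of 5.66 was not far above 5.42, the level under which 95% of the genes without a baseline call fell in that strain.

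In ER-associated degradation, which pulls misfolded proteins out of the ER for the proteasome, 5 of 7 members were lower in NZB/W and none was higher. The counts were the same after median centring and cyclic loess, and all 7 were lower as deposited. The share called, 71.4%, was near the 69.4% of all genes. Over all genes 36.1% were lower on the common scale and 84.0% as deposited. Edem1, whose lectin-like product delivers misfolded glycoproteins to degradation, stood at 8.97 to 9.25 in NZB/W (median 9.18) and at 9.63, 9.69, 9.69 and 9.70 in NZW/BXSB. It was 1.46-fold lower in NZB/W, with a wide gap between the strains (-0.55 ± 0.0602 SE, limma adjusted p = 2.61e-06). Syvn1, the gene of the ubiquitin ligase HRD1, stood at 8.43 to 8.71 in NZB/W (median 8.55) and at 8.97, 8.84, 8.95 and 9.10 in NZW/BXSB. It did not overlap either (-0.42 ± 0.0642 SE, limma adjusted p = 5.30e-05). Sel1l, the adaptor of that ligase, stood at 8.85 to 9.14 in NZB/W (median 9.03) and at 9.26, 9.14, 9.13 and 9.26 in NZW/BXSB. The strains met at their edges (-0.17 ± 0.0600 SE, limma adjusted p = 0.0207), and the call did not hold without NZW/BXSB replicate 1 or 4 (limma adjusted p = 0.0680 and 0.0633).

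The derlins, membrane proteins of the same exit route, split. Derl1 stood at 9.47 to 9.68 in NZB/W (median 9.62) and at 9.84, 9.83, 9.85 and 9.77 in NZW/BXSB, lower in NZB/W without overlap (-0.22 ± 0.0498 SE, limma adjusted p = 0.00121). Derl2 and Derl3 were not called, with intervals of -0.09 to 0.15 and -0.04 to 0.23. Herpud1, which recruits substrates to the HRD1 complex, differed by -0.43 ± 0.163 (SE, limma adjusted p = 0.0302), and 2 NZB/W kidneys lay within the NZW/BXSB range. Its call was lost without NZB/W replicate 1, 5 or 6 or without NZW/BXSB replicate 1, 3 or 4 (limma adjusted p of 0.0507 to 0.0764). At the translocon, the channel into the ER, Sec61a1 stood at 9.48 to 9.80 in NZB/W (median 9.74) and 10.04, 9.92, 9.88 and 9.86 in NZW/BXSB, lower in NZB/W without overlap (-0.22 ± 0.0651 SE, limma adjusted p = 0.00879). The small subunit gene Sec61b stood at 10.96 to 11.23 in NZB/W (median 11.08) and at 11.15, 11.02, 11.02 and 10.87 in NZW/BXSB. The strains overlapped, and the interval of the difference was -0.08 to 0.21.

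On the common scale, members that share a promoter element were called in both directions. Of the 11 members with ERSE or ERSE-II, 3 were higher in NZB/W (Calr, Pdia6 and Dnajc3), 5 lower (Canx, Creld2, Syvn1, Dnajb11 and Herpud1) and 3 not called (Hspa5, Hsp90b1 and Derl3), with differences of -0.54 to 0.50 and a median of 0.10 on the common scale. The 17 members with a window and neither element had 2 higher, 9 lower and 6 not called, with a median of -0.17. Of the 4 members with CARE, Chac1 was higher and Asns, Trib3 and Herpud1 were lower. All 11 with ERSE or ERSE-II were lower as deposited, so the split of that group hung on the scale. Over all genes 33.3% were higher and 36.1% lower on the common scale, and 84.0% were lower as deposited. The part of the elements in these differences was not tested.

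Other genes of folding and stress, in 7 further lists of 186 tested genes, also went both ways, with 40 higher, 74 lower and 72 not called. These counts stand beside 33.3% of all genes higher and 36.1% lower, and the difference of these lists from the members was not tested. Of 40 other ER folding genes 12 were higher and 13 lower (median difference -0.08, or -0.04 with Pdia2 and Uggt2, which lay under the background level in a strain, at their bounds). The isomerase gene Txndc5 (0.66) was higher, and Txndc11 (-0.81) and Sumf2 (-0.47) were lower. Dnajb12, the gene of an ER membrane J protein, was lower as well, with a mean of 7.18 ± 0.238 in the NZB/W kidneys against 8.18 ± 0.0566 in the NZW/BXSB kidneys (SD, n = 7 against 4). Of 24 other degradation genes 8 were higher and 11 lower (median difference -0.15). There the ER membrane ubiquitin ligase gene March6 (0.91) stood against the conjugating enzyme gene Ube2j1 (-0.61), the ubiquitin ligase gene Stub1 (-0.56) and Aup1 (-0.45). The translocon, signal peptidase and glycosylation list divided evenly, with 8 of 30 higher and 8 lower and a median of 0.02: Tram2 (0.59) and the signal peptidase subunit gene Spcs3 (0.48) were higher, and the catalytic subunit gene Sec11a (-0.55) and Sec63 (-0.34) were lower. As deposited March6 was still called higher, Txndc5 and Tram2 were not called, and Spcs3 was lower.

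Among 27 other stress sensors and regulators, 5 were higher and 11 lower. Creb3l1, which encodes the ER-bound factor OASIS, had the largest positive difference of the 4 named from this list (1.32), with a mean of 8.05 ± 0.211 in the NZB/W kidneys against 6.73 ± 0.193 in the NZW/BXSB kidneys (SD, n = 7 against 4), and was also higher as deposited. Atf6b, the paralog of Atf6, and Traf2, the adaptor of IRE1, were lower (-0.54 and -0.63). Ern2, the IRE1 beta gene known from gut epithelium, was at 4.59 ± 0.119 in NZB/W (SD, n = 7), below that strain's background level of 5.42, against 5.66 ± 0.0755 in NZW/BXSB (SD, n = 4). It was lower in NZB/W by at least 1.18-fold. Of 32 other ATF4 targets and amino acid response genes 6 were higher and 12 lower (median difference -0.12). Slc3a2, the heavy chain gene of amino acid exchangers (0.70), was higher on the common scale and not called as deposited, and the tRNA synthetase genes Cars (-0.60) and Sars (-0.31) and the serine synthesis gene Psph (-0.71) were lower.

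Chaperones outside the ER were lower in NZB/W or not called, with 1 exception. Of 20 cytosolic heat shock genes 12 were lower and 1 higher (median difference -0.26), and 11 were lower after median centring or cyclic loess. The Hsp110 gene Hsph1 differed most among the 4 named here (-1.04), with a mean of 9.58 ± 0.199 in the NZB/W kidneys against 10.62 ± 0.173 in the NZW/BXSB kidneys (SD, n = 7 against 4), and Dnaja1 (-0.59), Chordc1 (-0.52) and Dnaja2 (-0.23) were also lower. Of 13 mitochondrial chaperones and proteases 7 were lower and none higher (median difference -0.18). The m-AAA protease genes Afg3l1 (-0.63) and Afg3l2 (-0.53), the Hsp10 gene Hspe1 (-0.50) and Dnaja3 (-0.31) led this list. No test of a list was made, and these counts stand beside 33.3% of all genes higher and 36.1% lower.

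**Figure D4:**
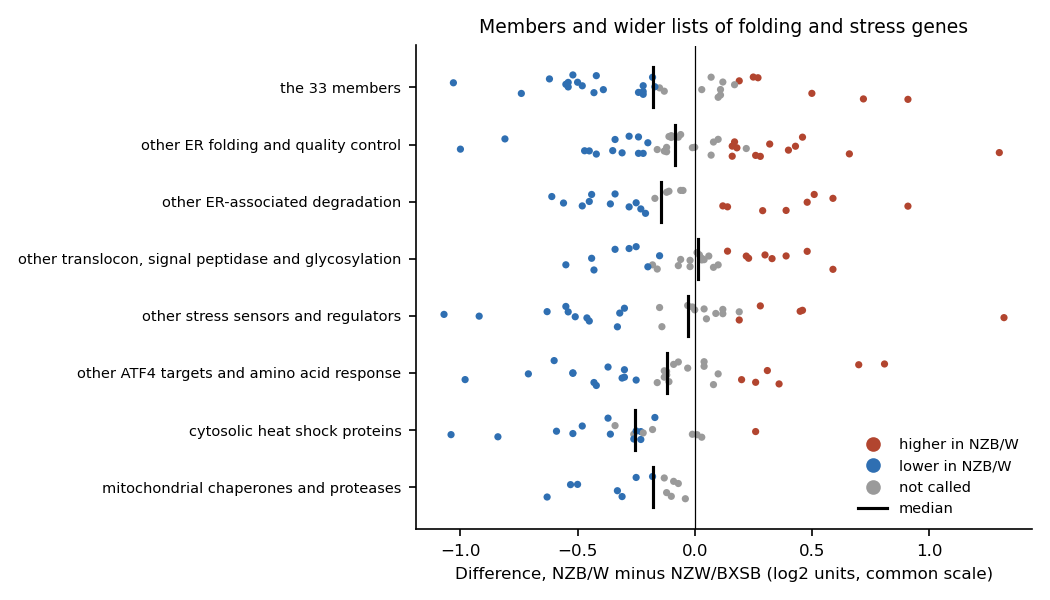
Differences of single genes in log2 units on the common scale (NZB/W minus NZW/BXSB), for the 33 members and 7 wider lists; red, higher in NZB/W; blue, lower; grey, not called; black bars, medians. The medians lie between -0.26 (cytosolic heat shock proteins) and 0.02 (translocon, signal peptidase and glycosylation), and as deposited nearly all genes of each list lay below 0.

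In each strain 1 kidney stood low in most of the 15 chaperone and isomerase members. NZB/W replicate 2 had the lowest level of the 7 NZB/W kidneys in 10 of the 15 chaperone and isomerase members, whereas it was lowest in 17.5% of all genes. NZW/BXSB replicate 3 had the lowest level of the 4 NZW/BXSB kidneys in 12 of these 15 members, whereas it was lowest in 19% of all genes. The same 8 genes were lowest in both kidneys: Hspa5, Hsp90b1, Calr, Pdia6, Dnajb11, Sdf2l1, Manf and Creld2. The mean over the 15 members was 9.72 in NZB/W replicate 2, with 9.90 to 10.04 in the remaining 6, and 9.94 in NZW/BXSB replicate 3, with 10.07 to 10.14 in the remaining 3. These kidneys were noticed by their values, so the counts are a description with no test. Neither kidney was the lowest in the mean of the 40 other ER folding genes described above. That mean was 8.83 in NZB/W replicate 2, where the NZB/W kidneys spanned 8.81 to 8.89. It was 8.88 in NZW/BXSB replicate 3, where the NZW/BXSB kidneys spanned 8.84 to 8.89. The mean of the sensors and transcription factors was 8.52 in NZB/W replicate 2, inside the range of 8.42 to 8.56 over the NZB/W kidneys, and 8.58 in NZW/BXSB replicate 3, where the NZW/BXSB kidneys spanned 8.58 to 8.61.

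The low NZB/W kidney also stood apart in its adrenal markers. The mean of 9 adrenal and perirenal fat markers was 6.85 in NZB/W replicate 2 and ranged over 9.06 to 10.08 in the remaining 6. Cyp11a1, the first enzyme of steroid synthesis, was at 4.31 there, under the background level of 5.42, and at 8.25 to 10.14 in the others. The adrenal genes Star, Cyp21a1 and Cyp11b1 were at 5.34, 5.37 and 5.19 there. The fat markers differed less: Adipoq and Fabp4 were at 8.23 and 11.41 there, close to 8.34 and 11.42 in NZB/W replicate 1. The fat marker Cfd was at 9.31 there and at 10.4 in NZB/W replicate 1. In NZW/BXSB the order was different, with a mean of the 9 markers of 8.76 in replicate 3, between 8.27 and 8.98 in the other 3 kidneys. The part of adrenal RNA in the levels of the folding genes was not tested. Without NZB/W replicate 2, 25 members were called, P4hb among them (0.21, limma adjusted p = 0.0143). Without both low kidneys 23 members were called, 5 higher and 18 lower, with P4hb called and Dnajc3 (limma adjusted p = 0.0712) and Hyou1 (limma adjusted p = 0.0893) not.

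Herpud1, described here because its spread was the widest of the members, followed another pattern. It was at 11.71, 11.66 and 11.54 in NZB/W replicates 2, 3 and 4 and at 10.83, 10.88, 11.05 and 11.18 in replicates 1, 5, 6 and 7, with no NZB/W kidney between 11.18 and 11.54. Its SD was 0.368 in NZB/W, against 0.103 in NZW/BXSB, where the 4 kidneys lay at 11.67, 11.56, 11.79 and 11.76. Dnajb9 was also highest in NZB/W replicate 2 (10.73, against 10.35 to 10.56 in the others), the kidney in which most chaperone and isomerase members were lowest. Over the 33 members the median SD was 0.139 in NZB/W, against 0.107 in NZW/BXSB, beside 0.121 in NZB/W and 0.0821 in NZW/BXSB over all genes.

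**Figure D5:**
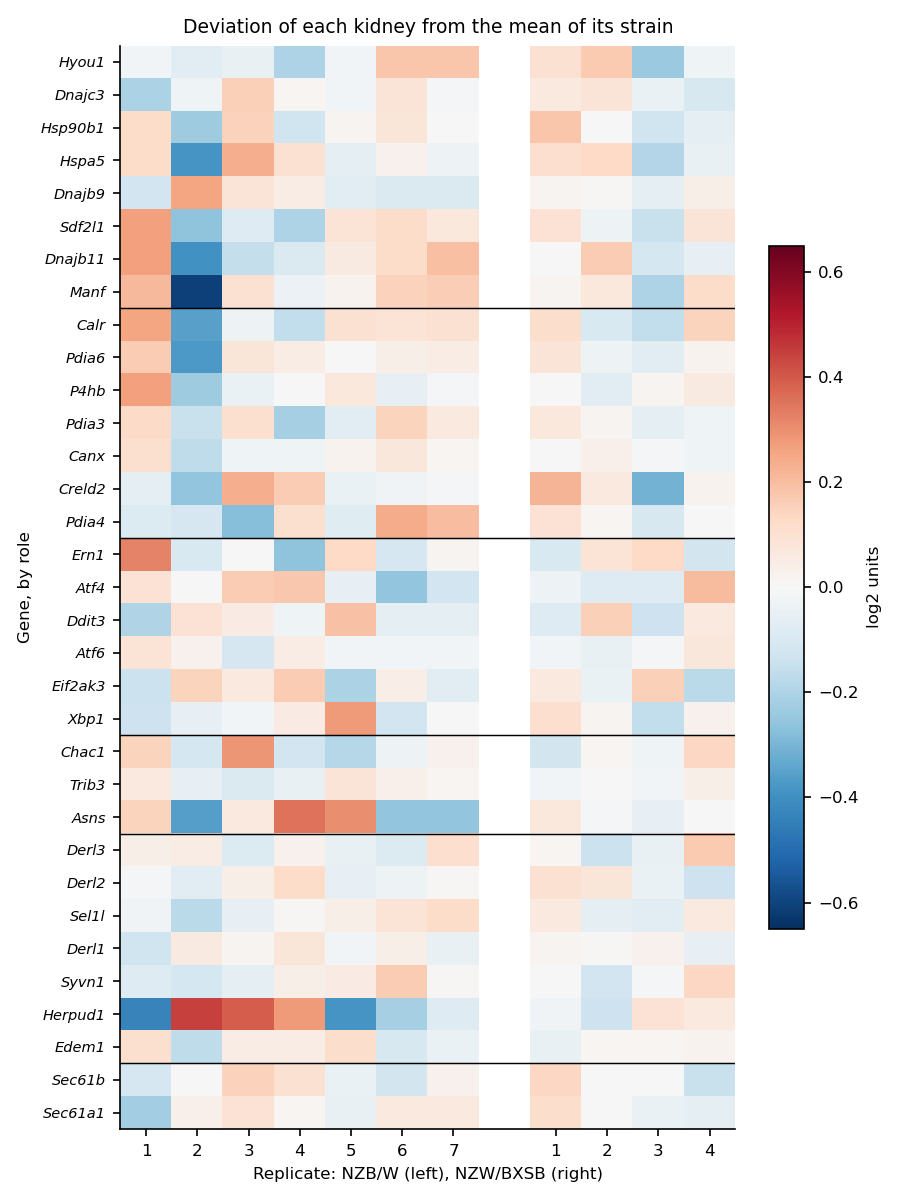
Deviation of each kidney from the mean of its own strain in log2 units on the common scale, for the 33 members by role (rows, separated by lines) in 7 NZB/W kidneys (left) and 4 NZW/BXSB kidneys (right). The upper 2 blocks are mostly blue in NZB/W replicate 2 and NZW/BXSB replicate 3, while Herpud1 and Dnajb9 are red in NZB/W replicate 2.

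Markers of other cell types and states also differed between the strains, in both directions. Of 11 plasma cell markers 4 were higher and 4 lower in NZB/W (median difference 0.10, or 0.00 with dim genes at their bounds), and the list mean was 6.64 to 7.07 in NZB/W kidneys against 6.87 to 7.32 in NZW/BXSB kidneys. The share called, 72.7%, was near the 69.4% of all genes. Of these markers, Txndc5 and Fkbp11 are also in the list of other ER folding genes. The antibody light chain gene Igk-C was lower, with a mean of 7.98 ± 0.826 in the NZB/W kidneys against 10.71 ± 0.921 in the NZW/BXSB kidneys (SD, n = 7 against 4), and so was the joining chain gene Igj, with 7.57 ± 0.771 in NZB/W against 9.03 ± 0.734 in NZW/BXSB. NZB/W replicates 6 and 7 stood apart in both, with Igk-C at 6.83 and 6.78 beside 8.29 to 8.85 in the remaining 5, and Igj at 6.58 and 6.33 beside 7.88 to 8.16. The plasma cell regulator Prdm1 (0.74, not called as deposited) and Sdc1 (0.31, lower as deposited) were higher on the common scale.

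Of 11 tubular injury markers 2 were higher and 5 lower in NZB/W (median difference -0.25), with list means of 7.92 to 8.43 in NZB/W against 8.38 to 8.51 in NZW/BXSB. NZB/W replicates 6 and 7 were again the lowest, at 7.99 and 7.92 beside 8.28 to 8.43 in the remaining 5. Of 9 markers of the proximal straight tubule 5 were lower in NZB/W and 3 higher, with list means of 9.99 to 10.25 in NZB/W against 12.03 to 12.18 in NZW/BXSB. The differences in this list ran from -6.42 to 0.46 around a median of -0.25, and Cyp7b1 (-6.42), Acsm3 (-5.97) and Slc7a13 (-5.33) lay farthest from 0. The medians of 5 other lists lay above 0 on the common scale and below 0 as deposited. Of 8 podocyte and endothelial markers 5 were higher and 2 lower (median difference 0.48), of 9 markers of the thick ascending limb and distal tubule 7 were higher and none lower (0.28), and of 13 proximal tubule markers 7 were higher and 3 lower (0.20). Of 8 fibroblast markers 3 were higher and none lower (0.30), and of 10 leukocyte markers 5 were higher and 3 lower (0.26, or 0.14 with dim genes at their bounds). As deposited these medians were -0.43 to -0.23. Of 7 collecting duct markers 2 were higher and none lower on the common scale (0.01). All these counts on the common scale stand beside 33.3% of all genes higher and 36.1% lower, and no list was tested. The part of each list in the differences of the members was not tested.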

How the data were processed

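The authors processed the Affymetrix arrays with RMA and deposited log2 values per Entrez gene for 11 kidneys, with a Yes or No call per gene and strain for expression above a baseline. The study's methods state joint normalization and batch correction, yet the deposited strains differed in scale. No source used here gives the reason. The 11 arrays were quantile normalized (limma 3.58.1, R 4.3.3), which removes any true shift of most genes, and the 14419 genes called Yes in at least 1 strain were fitted by lmFit and eBayes with strain as the only term, Benjamini-Hochberg adjusted over all of them. The study's SAM test was not available, and limma stands in at its limits. Intervals are 95%. Nothing in the labels says that replicates are separate litters or batches. The p-values set the strain difference against the spread between these samples, moderated over all tested genes. The number of arrays limits the precision.

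The members and lists were chosen with earlier results of these data known. A few mistaken or duplicate names were removed from the wider lists after matching. Values are given for Hspa5, Hsp90b1, Xbp1, Ern1, Eif2ak3, Atf6, Atf4 and Ddit3, for the 4 members of smallest p in each role, and for the 4 called genes of smallest p in each wider list. Where a mean lay below the 95th percentile of genes not called above baseline (5.42 for NZB/W, 5.03 for NZW/BXSB), folds are lower bounds. The fit was tested on simulated data in which a small set of genes changed, equally up and down. Most genes were called in the real data, so that test cannot tell whether the scaling suits them. Alternatives were other scalings, filters and priors, a replicate block and leaving out kidneys. Leaving out both kidneys with the lowest chaperone and isomerase members was added after seeing the data.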

Additional observations from a re-analysis of the deposited data

Results flagged for a closer look

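In 2 of the 66 groups formed by a member and a strain, 1 kidney lay further from the others than Dixon's 95% limit for the size of its group, where chance gives about 1 in 20. Both were NZB/W replicate 2. Manf was at 9.40 there and at 9.97 to 10.22 in the other NZB/W kidneys, and Pdia6 was at 10.39 there and at 10.76 to 10.93 in the others. It is the same kidney in which the adrenal marker Cyp11a1 was at 4.31 and most chaperone and isomerase members were lowest. The part of adrenal RNA in these values was not tested.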

How the results depend on the processing

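The scale decided most. As deposited, 1 member was higher and 31 lower, and all genes gave 801 higher and 12105 lower. On that scale 27 members passed the study's limits (0 higher and 27 lower). The share of all genes past these limits was counted only on the common scale (27.9%), so the 27 have no share beside them. As deposited 0 members lay wholly above and 29 wholly below in NZB/W, beside 3.40% and 77.2% of all genes. The wider lists then had 3 genes higher and 175 lower. The members that changed sign as deposited were Hspa5 (-0.60), Hsp90b1 (-0.59), Calr (-0.20), Pdia6 (-0.43), P4hb (-0.51), Dnajc3 (-0.53), Atf4 (-0.59), Hyou1 (-0.42), Sec61b (-0.66), Derl2 (-0.67) and Derl3 (-0.60). The cyclic loess scaling, the filters, the intensity trend and the robust prior changed no member's call, and median centring changed those of Dnajb9, Dnajc3 and P4hb. Leaving out 1 kidney at a time gave 21 to 25 members called (4 to 7 higher, 15 to 18 lower), 9311 to 10014 of all genes (4469 to 4814 higher, 4842 to 5227 lower), 6 to 9 members past the study's limits (2 to 3 higher, 4 to 7 lower), and 34 to 41 genes higher and 68 to 78 lower in the wider lists. The 6 past the study's limits came without NZB/W replicate 3, without NZW/BXSB replicate 1 and without NZW/BXSB replicate 2. In the fits without a kidney the share of all genes past these limits was not counted. Derl2, whose difference ran from -0.013 to 0.064 over these fits, changed sign without NZW/BXSB replicate 4, and Derl3 was then called (limma adjusted p = 0.0421). The replicate numbers did not pair the samples: the correlations of deviations were -0.08, 0.275, -0.002 and -0.128, and 1 of 4 kidneys correlated best with its own number. With the replicate block, which uses only NZB/W replicates 1 to 4, 21 members (5 higher, 16 lower) were called, Atf4 was gained and Dnajb9, Dnajc3, Herpud1 and Hyou1 were lost, and without NZB/W replicates 6 and 7, known from earlier results to stand low in plasma cell and injury markers, the same 4 were lost and Atf4 and Pdia3 gained. The causes were not tested.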
